A study of Mus musculus with 36 samples.

Results

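The 36 genes described here encode proteins that act in mitosis, and their transcripts were followed in mouse astrocyte cultures given dexamethasone or vehicle. They form a list of names. Each gene is represented by the probe with its symbol that has the highest mean intensity over the 36 arrays. No measured response enters this choice of probe. The list itself was chosen with earlier results of these data known, so its shares set beside those of all genes are descriptions. All 36 had a probe, out of 30829 gene symbols on the array. Of these, 31 lay above background on at least 2 arrays and were tested within a fit of 20633 genes, and 5 (Ccnb2, Nek2, Bub1, Cenpe and Kif20a) lay below background on every array.

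Total RNA came from cortical astrocyte cultures prepared from newborn C57B/6 mouse pups and grown in serum-containing medium until about confluent; the growth protocol names cortex or hippocampus, the sample labels cortex. Dexamethasone, a synthetic glucocorticoid, was added at about 100 nM and cultures were taken at 8 times, early (0.25 and 1 h), middle (2, 4 and 6 h), at 12 h and late (18 and 24 h), with vehicle cultures at each of them. There are 18 dexamethasone arrays and 18 vehicle arrays, with 3 arrays per treatment at 2 h and 4 h and 2 at each other time. The labels name no transgene or mutation and do not say whether replicates are separate cultures, so the p-values cover the spread among these arrays, which may be technical.

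When a cell enters mitosis, cyclin B with its kinase CDK1, and the Polo and Aurora kinases, drive chromosome condensation and the building of the spindle. Kinetochores tie chromosomes to spindle microtubules and hold back the anaphase-promoting complex until all are attached; the complex then has cyclin B and securin degraded, separase opens the cohesin ring, and the central spindle sets the place where the cell is cut. The mRNAs of these proteins accumulate together in G2 and mitosis and are low in resting cells. Astrocytes of newborn rodents still divide in culture, whereas most astrocytes of the adult brain do not.

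Values below are corrected log2 intensities of normalised arrays, on which 5.83 is the background level. A difference is given as dexamethasone minus vehicle on the log2 scale, with its standard error (SE). A gene was called lower or higher at an adjusted p under 0.05, from limma with Benjamini-Hochberg adjustment over the 20633 genes. Levels of different probes cannot be compared with each other. The cultures responded to the steroid: averaged over the 8 times the receptor target Fkbp5 was higher by 3.22 (SE 0.08, adjusted p = 6.6e-21) and Tsc22d3 by 2.14 (SE 0.07, adjusted p = 9.4e-19). Array medians of the deposited intensities ran from 93.7 to 94, as normalisation leaves them, so they are no check of the arrays. Of 10 astrocyte markers, 9 lay above background on every array.

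Some replicates stood apart from each other. In 6 pairs of replicates at 0.25, 1 and 2 h, in both treatments, 364 genes differed by more than 1 log2 unit in every pair; this pattern was noticed in the data, not taken from the labels. An index, the median centred level of 350 such genes outside the cell cycle lists, was -1.29 to -1.37 on 1 array of each pair and 0.33 to 0.55 on its counterparts. At 18 h it was 0.86 and 0.95 in dexamethasone cultures against 0.66 and 0.84 in vehicle cultures, and at 24 h it was 0.33 and -0.16 against 0.50 and 0.40. Among the mitosis genes Ckap2 and Ect2 are split in this way, and their late results, with those of Top2a, are given with and without the index in the fit.

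**Figure D1:**
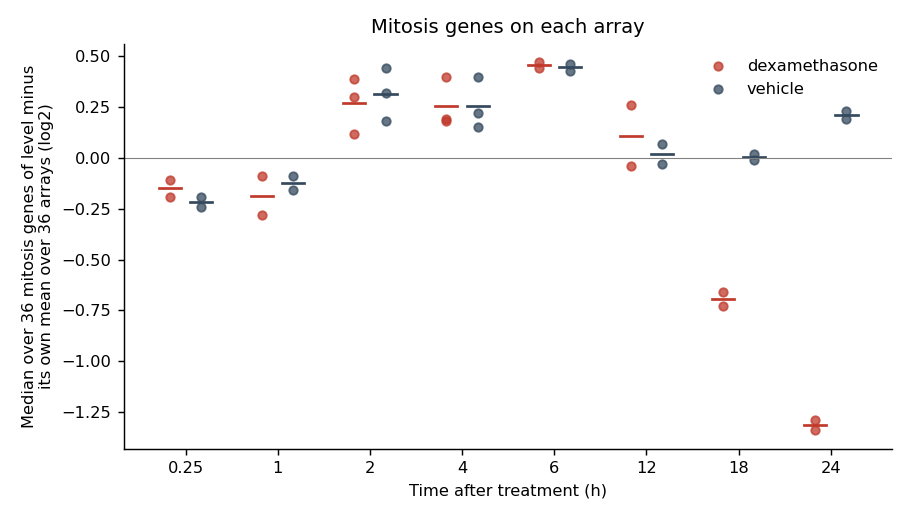
Median over the 36 mitosis genes of each gene's level minus its own mean over 36 arrays (log2, vertical axis), by hours after treatment (horizontal axis). Each point is an array and each bar a group mean, dexamethasone in red on the left and vehicle in dark grey on the right; the 24 h dexamethasone arrays lie at -1.34 and -1.29, against 0.23 and 0.19 for vehicle.

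Most of the mitosis transcripts were lower in dexamethasone than in vehicle cultures at 24 h, fewer at 18 h, and none was called in either direction at 12 h or before in the fit without replicate numbers. Relative to each gene's mean over all arrays, the median of the 36 genes was -1.34 and -1.29 on the 24 h dexamethasone arrays, against 0.23 and 0.19 on the 24 h vehicle arrays. At 18 h it was -0.66 and -0.73 with dexamethasone, against -0.01 and 0.02 with vehicle. These 4 late dexamethasone arrays were the lowest of all 36, and the late vehicle arrays lay within the range of the earlier vehicle arrays. At 12 h the medians were -0.04 and 0.26 with dexamethasone and -0.03 and 0.07 with vehicle, so the groups overlapped. Since the RNA came from whole cultures, fewer dividing cells and less of these mRNAs per cell cannot be told apart.

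At 24 h, 25 of the 36 genes were called lower and 0 higher (2.03% of all genes tested were called lower, 1.84% higher). The median difference over all 36 was -1.6, a 3.03-fold lower level, beside a median of 0.02 over all genes tested. On 30 of the 31 tested genes both dexamethasone arrays lay below both vehicle arrays (21.1% of all genes did so). The largest falls were those of Top2a (-2.13, SE 0.43, 4.38-fold, adjusted p = 0.0025), Aurkb (-2.08, SE 0.22, 4.23-fold, adjusted p = 4.7e-07) and Mki67 (-1.99, SE 0.22, 3.96-fold, adjusted p = 5.7e-07). In 21 of the 36 genes the 2 lowest of all 36 arrays were the 24 h dexamethasone arrays, which held for 1.18% of all genes.

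At 18 h, 12 of the 36 genes were called lower and 0 higher (1.97% of all genes were called lower, 1.66% higher). The median over all 36 was -0.82, or 1.77-fold, beside -0.02 over all genes. Again 30 of the 31 tested genes had both dexamethasone arrays below both vehicle arrays, where 30.9% of all genes did. Aurkb (-1.26, SE 0.22, adjusted p = 0.00063), Mki67 (-1.16, SE 0.22, adjusted p = 0.0012) and Kif23 (-1.11, SE 0.18, adjusted p = 0.00024) had the largest falls among the called genes. The count at 18 h depended on how the spread was estimated: 26 genes were called lower when arrays were weighted by their estimated quality, where 10.9% of all genes were, and 28 when the fit used the 18 h arrays alone, where 9.47% were.

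The level in dexamethasone cultures was lower again at 24 h than at 18 h. Both 24 h dexamethasone arrays lay below both 18 h dexamethasone arrays for 28 of the 36 genes (18% of all genes), with a median step of -0.41. In vehicle cultures 4 genes were lower and 16 higher at 24 h than at 18 h by the same criterion, with a median step of 0.13 (16.7% of all genes were lower and 28.5% higher). From 12 h to 18 h, 30 genes were lower and 0 higher in dexamethasone cultures (median -0.86; 29.6% and 23.5% of all genes), against 10 lower and 7 higher in vehicle cultures (median -0.01; 31.9% and 17.7% of all genes). The vehicle share from 12 h to 18 h was near that of all genes. These steps are descriptions and were not tested.

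**Figure D2:**
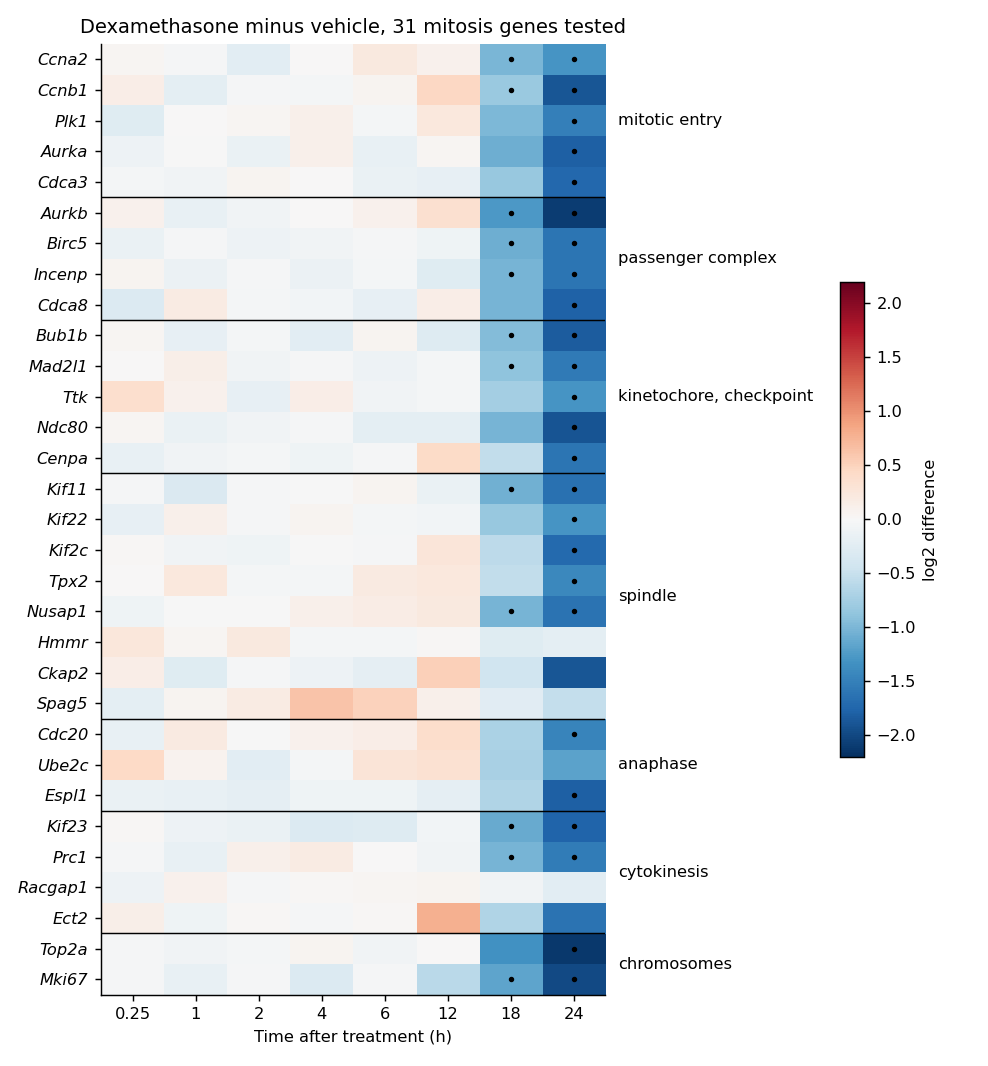
Log2 difference, dexamethasone minus vehicle, of the 31 mitosis genes tested (rows, grouped by role) at 8 times after treatment in hours (columns), blue lower and red higher; a dot marks an adjusted p under 0.05. The dots lie at 18 h (12 genes) and 24 h (25 genes), and no gene is marked at 12 h or earlier.

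The promoters of these genes share short sequence elements. Mitosis genes are known to be held down in resting cells by the DREAM complex, which contacts the cell cycle genes homology region (CHR), and CCAAT boxes bound by NF-Y are known to lie upstream of the CHR. The RefSeq promoter table (build GRCm38.p6, 250 bases before to 50 after each gene's start) held 31 of the 36 genes; Aurkb, Ccna2, Incenp, Kif20a and Tpx2 were not matched. Both strands were searched, with overlapping matches counted and a gene counted if any of its listed starts held the letters. TTTGAA or TTCGAA, the forms of the CHR, stood in 25 of the 31 promoters (80.6%), against 21.7% of the 27025 genes in the table. CCAAT stood in 26 (83.9%), against 41.1% of all, and GGCGG in 26 (83.9%), against 51.2%. A CHR match together with a CCAAT match was found in 23 (74.2%), against 9.65%, and at least 2 CCAAT matches in 17 (54.8%), against 13.3%.

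The promoters of the 4 genes with the brightest probes are printed below 5′ to 3′ on the strand of the gene, in lower case with CHR and CCAAT matches in capitals (ATTGG is CCAAT on the other strand), because they show this shared arrangement beside the start. They are those of Prc1 (chr7:80294201-80294500, plus strand), Cenpa (chr5:30666636-30666935, plus strand), Kif23 (chr9:61946750-61947049, minus strand) and Cdca3 (chr6:124829926-124830225, plus strand). Prc1 has 2 starts in the table, of which 1 is shown.
Prc1 promoter: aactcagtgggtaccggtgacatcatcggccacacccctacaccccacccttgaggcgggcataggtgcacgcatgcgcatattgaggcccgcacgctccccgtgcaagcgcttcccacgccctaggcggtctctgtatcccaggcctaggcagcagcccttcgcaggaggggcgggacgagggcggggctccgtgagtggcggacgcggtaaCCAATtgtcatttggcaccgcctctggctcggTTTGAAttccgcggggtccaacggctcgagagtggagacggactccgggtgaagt
Cenpa promoter: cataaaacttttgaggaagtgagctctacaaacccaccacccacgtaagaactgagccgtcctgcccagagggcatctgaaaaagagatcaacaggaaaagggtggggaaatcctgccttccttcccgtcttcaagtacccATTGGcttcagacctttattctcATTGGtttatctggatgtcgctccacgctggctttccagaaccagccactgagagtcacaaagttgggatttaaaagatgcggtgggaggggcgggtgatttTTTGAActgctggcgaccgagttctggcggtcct
Kif23 promoter: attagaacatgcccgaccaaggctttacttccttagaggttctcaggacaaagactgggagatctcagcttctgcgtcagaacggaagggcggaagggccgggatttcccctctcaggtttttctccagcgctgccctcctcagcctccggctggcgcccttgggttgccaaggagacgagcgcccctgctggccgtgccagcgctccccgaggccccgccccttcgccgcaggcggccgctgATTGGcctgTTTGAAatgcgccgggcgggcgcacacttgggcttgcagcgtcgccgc
Cdca3 promoter: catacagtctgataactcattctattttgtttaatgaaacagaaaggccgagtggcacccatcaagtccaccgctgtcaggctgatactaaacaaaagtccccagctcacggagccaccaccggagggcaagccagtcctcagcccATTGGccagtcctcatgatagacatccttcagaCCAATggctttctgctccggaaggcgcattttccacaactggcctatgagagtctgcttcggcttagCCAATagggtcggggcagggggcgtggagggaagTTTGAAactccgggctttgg

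Counted from the start as 0, the CHR match begins at -5 in Prc1, 16 in Cenpa, 2 in Kif23 and 30 in Cdca3, with the CCAAT matches before it in all 4. The nearest of these begins at -37 in Prc1, -86 in Cenpa, -7 in Kif23 and -4 in Cdca3. Birc5, Ccnb1, Cenpe, Mad2l1, Nek2 and Nusap1 had no CHR match in this window. Racgap1 and Spag5, which were not called at 24 h, hold both a CHR and a CCAAT match, at 5 and -12 in Racgap1. A match is a description of letters, and no factor's binding was measured.

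Of the 7 genes that bring the cell into mitosis, all 5 that could be tested fell at 24 h, and 2 of them at 18 h. Cdca3, whose product helps degrade the mitosis inhibitor WEE1, stood at 10.19 and 10.07 on the 24 h dexamethasone arrays, against 11.88 and 11.83 on the vehicle arrays (-1.72, SE 0.38, adjusted p = 0.0055). At 18 h its values were 10.83 and 10.96 with dexamethasone against 11.84 and 11.61 with vehicle, a difference that was not called (adjusted p = 0.4). Ccnb1, the mitotic cyclin B1, stood at 9.34 and 9.65 at 24 h with dexamethasone, against 11.29 and 11.48 with vehicle (-1.89, SE 0.19, adjusted p = 1.8e-07). At 18 h Ccnb1 stood at 10.43 and 10.52 against 11.31 and 11.25 (-0.81, SE 0.19, adjusted p = 0.012). From 2 to 6 h Ccnb1 ranged over 11.56 to 12.09 (median 11.88) in dexamethasone cultures and 11.56 to 12.12 (median 11.86) in vehicle cultures. At 0.25 and 1 h it ranged over 10.94 to 11.29 with dexamethasone and 10.86 to 11.35 with vehicle. Its late vehicle values lay slightly below those of 2 to 6 h and within or above those of 0.25 and 1 h. Its late dexamethasone values lay below both. Cyclin A2 (Ccna2) fell at both times (-1 at 18 h, -1.30 at 24 h), and the kinases Aurka (-1.80) and Plk1 (-1.51, adjusted p = 0.048) at 24 h. The remaining genes, cyclin B2 (Ccnb2) and the centrosome kinase gene Nek2, had intensities of 55 to 83.4 and 54.9 to 84.9 on all arrays, below the background level of 91.7.

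All 4 genes of the chromosomal passenger complex fell at 24 h, and 3 of them at 18 h. The complex corrects faulty attachments between kinetochores and microtubules and moves to the central spindle at anaphase. Its targeting subunit borealin, encoded by Cdca8, stood at 9.31 and 9.37 on the 24 h dexamethasone arrays, against 11.03 and 11.20 on the vehicle arrays (-1.78, SE 0.37, adjusted p = 0.0034). At 18 h Cdca8 stood at 9.77 and 9.63 against 10.80 and 10.65, without overlap but not called (adjusted p = 0.18). Survivin, encoded by Birc5, stood at 9.04 and 9.09 against 10.54 and 10.78 at 24 h (-1.60, SE 0.22, adjusted p = 1.5e-05). At 18 h Birc5 stood at 9.42 and 9.33 against 10.49 and 10.43 (-1.08, SE 0.22, adjusted p = 0.0023). The kinase subunit Aurkb reached 8.08 and 8.44 with dexamethasone at 24 h, against 10.32 and 10.36 with vehicle. Incenp, the scaffold of the complex, fell at both times (-1.03 at 18 h, -1.60 at 24 h), so the 4 subunits lay between -1.60 and -2.08 at 24 h.

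Of the 7 kinetochore and spindle checkpoint genes, the 5 tested fell at 24 h, and 2 of them at 18 h. Cenpa, the histone H3 variant that marks centromeres, stood at 11.64 and 11.57 on the 24 h dexamethasone arrays, against 13.24 and 13.19 with vehicle (-1.61, SE 0.19, adjusted p = 1.5e-06). At 18 h Cenpa stood at 12.42 and 12.55 against 12.95 and 13.10, without overlap but not called (-0.54, SE 0.19, adjusted p = 0.15). Mad2l1, the checkpoint protein that binds CDC20, had little spread between replicates and was called at both times. It stood at 10.23 and 10.16 against 11.13 and 11.01 at 18 h (-0.88, SE 0.14, adjusted p = 0.00018), and at 9.65 and 9.51 against 11.09 and 11.18 at 24 h (-1.55, SE 0.14, adjusted p = 3.1e-08). From 2 to 6 h Mad2l1 ranged over 11.14 to 11.44 in dexamethasone cultures and 11.23 to 11.58 in vehicle cultures, which overlap. The checkpoint kinase gene Bub1b fell at both times (-0.96 at 18 h, -1.83 at 24 h). The outer kinetochore gene Ndc80 (-1.90) and the kinase gene Ttk (-1.29) fell at 24 h. With dexamethasone at 24 h Ttk had a mean of 5.88, near background, which limits its difference. Bub1 and Cenpe, a checkpoint kinase and a kinetochore motor, had intensities of 54.9 to 81.9 and 59.6 to 82.8 and were below background on all arrays.

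Of the 8 spindle genes, 5 fell at 24 h and 2 at 18 h, and Spag5, Ckap2 and Hmmr were called at no single time. Nusap1, a microtubule bundling protein of the spindle, stood at 10.13 and 10.00 on the 24 h dexamethasone arrays, against 11.84 and 11.56 with vehicle (-1.63, SE 0.23, adjusted p = 3.3e-05). At 18 h Nusap1 stood at 10.69 and 10.55 against 11.56 and 11.73 (-1.03, SE 0.23, adjusted p = 0.008). Kif11, the motor that pushes spindle poles apart, fell at both times (-1.05 and -1.64). At 24 h the microtubule depolymerising motor gene Kif2c (-1.71), the Aurora A activator gene Tpx2 (-1.42) and the chromosome arm motor gene Kif22 (-1.30, adjusted p = 0.043) also fell. Spag5 (astrin), needed for stable spindle poles, stood at 10.77 and 10.76 against 11.37 and 11.19 at 24 h, a smaller difference that was not called (-0.52, SE 0.26, adjusted p = 0.45). At 18 h it stood at 11.12 and 10.96 against 11.33 and 11.25 (-0.25, SE 0.26, adjusted p = 1).

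Spag5 also stood apart earlier. At 4 h it was 11.29, 11.21 and 11.70 on the dexamethasone arrays, against 10.66, 10.80 and 10.84 on the vehicle arrays, without overlap (0.63, SE 0.22, adjusted p = 0.19). At 6 h it was 11.55 and 11.61 against 11.02 and 11.11 (0.51, SE 0.26, adjusted p = 0.75). Neither difference was called, although at 4 h, where same-numbered replicates deviate together, the fit with the replicate number as a block gave 0.63 (SE 0.16, adjusted p = 0.024). The difference between the responses at 18 and 24 h and at 2, 4 and 6 h was -0.83 for Spag5 (SE 0.23, adjusted p = 0.047).

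Ckap2, Ect2, Ube2c, Racgap1 and Hmmr were the other tested genes not called at 24 h; the first 3 are named here after their values were seen. Ckap2, a spindle microtubule protein, stood at 9.18 and 8.96 on the 24 h dexamethasone arrays, against 10.99 and 10.91 with vehicle (-1.88, SE 0.83, adjusted p = 0.33). Ect2, the exchange factor that activates RhoA for cytokinesis, stood at 7.01 and 6.60 against 8.54 and 8.31 (-1.62, SE 0.77, adjusted p = 0.4). Their errors were large, and between the 6 early replicate pairs Ckap2 differed by 1.74 to 2.45 and Ect2 by 1.58 to 2.12. At 18 h Ckap2 stood at 10.92 and 11.08 against 11.38 and 11.48 (-0.43, SE 0.83, adjusted p = 1), and Ect2 at 7.83 and 8.12 against 8.52 and 8.76 (-0.67, SE 0.77, adjusted p = 1). With the index of split genes in the fit, an alternative chosen after seeing the data, Ckap2 was lower at 24 h (-1.46, SE 0.24, adjusted p = 9.1e-05), as was Ect2 (-1.23, SE 0.22, adjusted p = 0.00029). At 18 h Ect2 was then called lower (-0.83, SE 0.22, adjusted p = 0.017) and Ckap2 was not (-0.60, SE 0.24, adjusted p = 0.18).

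Dim probes limit Ube2c, Hmmr and Racgap1. Ube2c, the ubiquitin-conjugating enzyme of the anaphase-promoting complex, was below background on both 24 h dexamethasone arrays (5.79 and 5.72) and above it on the vehicle arrays (6.78 and 7.09), at least 2.15-fold lower against the background level (adjusted p = 0.087). Hmmr, a hyaluronan and microtubule binding protein, was above background on 13 of 36 arrays and on 1 of the 4 arrays at 24 h. Racgap1, the centralspindlin subunit that binds Ect2, was above background on all 36 arrays but close to it. Its intensities were 100.5 to 135.2, beside the background level of 91.7, which leaves little room for a fall. At 24 h Racgap1 stood at 6.10 and 6.62 against 6.63 and 6.57 (-0.24, SE 0.20, adjusted p = 0.76). It was the only tested member whose arrays overlapped at both 18 h and 24 h.

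**Figure D3:**
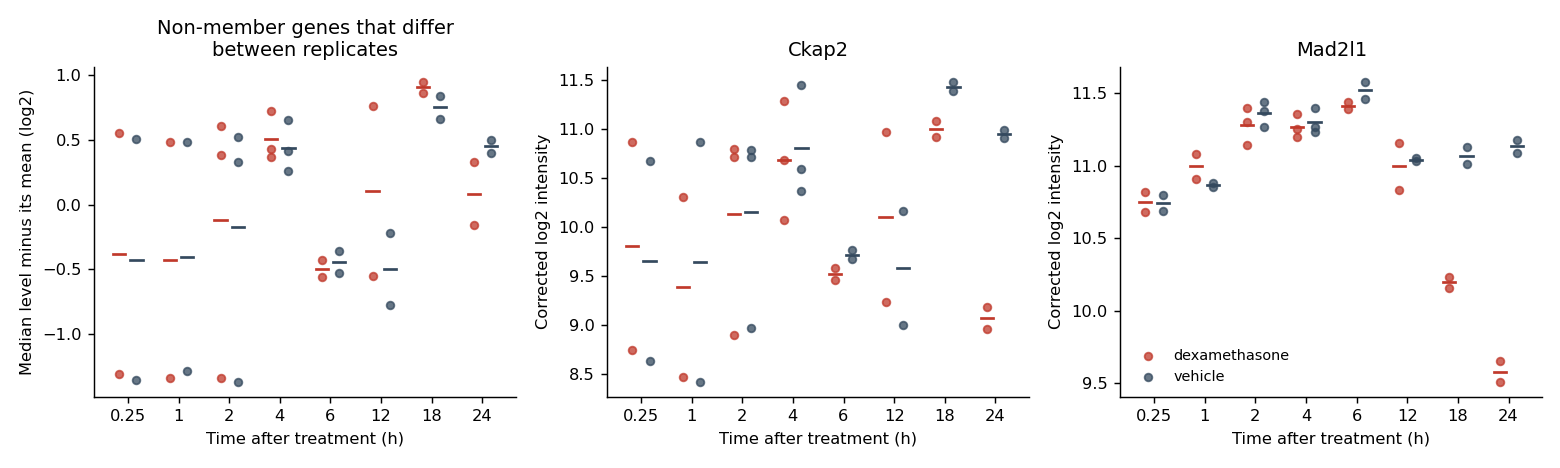
Left, the index of non-member genes that differ between replicates (median level minus its mean, log2); middle and right, corrected log2 intensity of Ckap2 and Mad2l1, all by hours after treatment, with each point an array and each bar a group mean. Dexamethasone (red) stands left of vehicle (dark grey); the Ckap2 replicates at 0.25, 1 and 2 h separate as the index does, by 1.74 to 2.45, and those of Mad2l1 do not.

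Of the 3 genes of anaphase onset, Cdc20 and Espl1 fell at 24 h and none was called at 18 h. Cdc20, the activator of the anaphase-promoting complex, stood at 9.90 and 9.75 on the 24 h dexamethasone arrays, against 11.27 and 11.27 with vehicle (-1.45, SE 0.33, adjusted p = 0.0081). At 18 h it stood at 10.46 and 10.60 against 11.27 and 11.18 (-0.70, SE 0.33, adjusted p = 0.46). Espl1, which encodes separase, stood near background at 6.05 and 5.84 with dexamethasone at 24 h, against 7.53 and 7.97 with vehicle (-1.80, SE 0.35, adjusted p = 0.0016). Its 18 h values were 6.33 and 6.39 against 6.84 and 7.20 (-0.66, SE 0.35, adjusted p = 0.59). For all 3 genes the 18 h arrays separated by treatment, but by less than the limma threshold asks.

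Of the 5 genes of the central spindle and cytokinesis, Prc1 and Kif23 fell at both late times. Prc1 bundles the antiparallel microtubules of the central spindle. It stood at 12.05 and 12.04 on the 18 h dexamethasone arrays, against 13.01 and 13.15 with vehicle (-1.03, SE 0.15, adjusted p = 4.2e-05). At 24 h it stood at 11.80 and 11.90 against 13.45 and 13.31 (-1.53, SE 0.15, adjusted p = 1e-07). On all 14 dexamethasone arrays up to 12 h Prc1 was at 12.75 or above, so the late values lie clear of the earlier ones. Kif23, the centralspindlin motor, stood at 11.00 and 10.95 against 12.00 and 12.17 at 18 h (-1.11, SE 0.18, adjusted p = 0.00024), and at 10.60 and 10.51 against 12.37 and 12.29 at 24 h (-1.77, SE 0.18, adjusted p = 2.3e-07). The midzone motor gene Kif20a was below background on all arrays, with intensities of 60.4 to 82.4.

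Both genes of chromosome structure fell at 24 h. Top2a, the topoisomerase that untangles sister chromatids, stood at 9.54 and 9.28 on the 24 h dexamethasone arrays, a mean of 9.41 ± 0.19, against 11.46 and 11.62 with vehicle, a mean of 11.54 ± 0.11 (SD, n = 2 each). At 18 h Top2a stood at 9.68 and 9.86 against 10.95 and 11.27, the largest difference of any member at that time but not called (-1.34, SE 0.43, adjusted p = 0.1). Its early replicates differed by 0.98 to 1.29, and with the index in the fit it was lower at 18 h (-1.43, SE 0.17, adjusted p = 1.2e-06) and at 24 h (-1.92, SE 0.17, adjusted p = 8.1e-09). Mki67, which encodes the Ki-67 coat of mitotic chromosomes and is a usual marker of cycling cells, stood at 9.78 and 9.78 at 18 h against 10.89 and 10.98. At 24 h Mki67 stood at 8.94 and 9.84 against 11.31 and 11.44, with a wide spread between the dexamethasone arrays. It was also the lowest member relative to vehicle at 12 h, at 10.83 and 10.30 against 11.11 and 11.20, not called (-0.59, SE 0.22, adjusted p = 0.13).

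**Figure D4:**
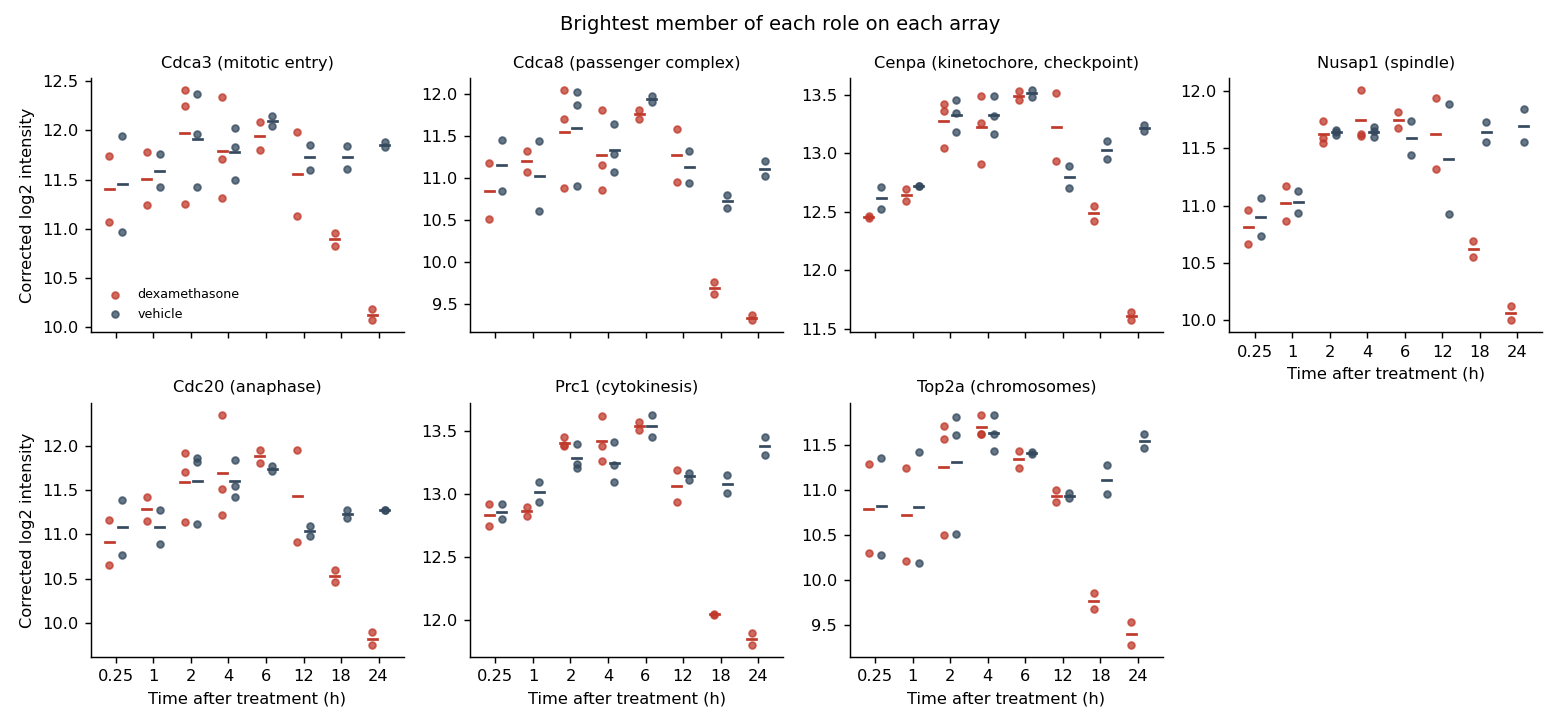
Corrected log2 intensity (vertical axis, own scale in each panel) of the gene with the brightest probe in each of 7 role groups, by hours after treatment. Points are arrays and bars group means, dexamethasone (red) left of vehicle (dark grey); at 18 h and 24 h every dexamethasone array lies below every vehicle array of the same time in all 7 panels.

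Up to 12 h, 0 members were called in either direction by limma. Of all genes, 0% were called lower and 0% higher at 0.25 h, 0.00485% and 0.063% at 1 h, 0.126% and 0.596% at 2 h, 0.814% and 1.55% at 4 h, 0.683% and 1.4% at 6 h, and 3.48% and 2.21% at 12 h. At an unadjusted p under 0.05, 0 members passed at 0.25, 1, 2 and 6 h, Spag5 passed as higher at 4 h, and at 12 h Mki67 passed as lower and Ccnb1 and Cenpa as higher. The medians over all 36 genes lay between -0.04 and 0.03 at these 6 times. Ccnb1 at 12 h stood at 11.62 and 11.48 in dexamethasone cultures, against 10.98 and 11.22 in vehicle cultures (0.45, SE 0.19, adjusted p = 0.22). Ect2 had the largest positive difference at 12 h (0.78, SE 0.77, adjusted p = 0.72), with replicates at 7.05 and 8.66 against 6.74 and 7.42; with the index in the fit it was 0.14. Same-numbered arrays of 12 h deviated together (correlation 0.51). The 2 vehicle arrays of 12 h were unlike each other: their centred levels over all tested genes correlated at -0.182, against 0.854 at 18 h and 0.607 at 24 h. Their summed microglial markers were 1970 and 13100, where vehicle arrays of 0.25 and 1 h had 13100 to 20400. The 12 h dexamethasone arrays correlated at 0.158 and had sums of 1700 and 2760. The bearing of this on the 12 h differences was not tested. With the replicate number as a block, Mki67 was called lower at 12 h (adjusted p = 0.022). Ccnb1 (adjusted p = 0.038), Cenpa (adjusted p = 0.033), Ckap2 (0.52, adjusted p = 0.033) and Ect2 (adjusted p = 0.013) were then called higher. In that fit 11.1% of all genes were called lower and 7.46% higher. With the index in the fit instead, Ckap2 had the opposite sign at 12 h, not called (-0.17, SE 0.24, adjusted p = 0.77). At 12 h the arrays of the treatments overlapped for 25 of the 31 tested genes, with 2 lower and 4 higher without overlap (18.9% and 13.7% of all genes), and at 6 h 6 were lower and 8 higher without overlap (27.8% and 23.9%). Single arrays of 12 h decide such counts: without dexamethasone replicate 1 at 12 h, 1 gene was called lower and 1 higher at 12 h, without vehicle replicate 2 at 12 h 1 was called higher there, and without either vehicle replicate of 12 h 1 was called higher at 4 h.

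The late and early responses were compared directly. For the response at 18 and 24 h minus the response at 2, 4 and 6 h, 24 of the 36 genes were called lower and 0 higher (2.03% of all genes lower, 1.01% higher), with a median of -1.15 over all 36. Top2a (-1.71, SE 0.38, adjusted p = 0.0077), Aurkb (-1.68, SE 0.20, adjusted p = 2.7e-06) and Mki67 (-1.46, SE 0.19, adjusted p = 1.4e-05) had the largest values. Within dexamethasone cultures, 27 genes were lower at 18 and 24 h than at 2, 4 and 6 h and 0 higher (14.7% of all genes lower, 12.1% higher), with a median of -1.41; for 24 of the 31 tested genes all late dexamethasone arrays lay below all earlier ones and for 0 above (6.93% and 5.49% of all genes). Aurkb (-2.21, SE 0.14), Espl1 (-2.08, SE 0.22) and Cdca8 (-2.01, SE 0.23) fell most. The reference times were high: the group mean of the array medians was -0.15 and -0.18 at 0.25 and 1 h with dexamethasone. It was 0.27, 0.26 and 0.46 at 2, 4 and 6 h, and -0.69 and -1.32 at 18 and 24 h. At 18 h Cenpa and Nusap1 overlapped their 0.25 and 1 h dexamethasone values, and Mad2l1, Prc1 and Kif23 lay below theirs.

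In the sample titles, the vehicle arrays of 2, 4 and 6 h carry an added 2 that the labels do not explain and that the other vehicle arrays lack; its part in the comparisons of late with earlier times was not tested. In vehicle cultures 11 genes were called lower and 0 higher at 18 and 24 h against 2, 4 and 6 h (11% of all genes lower, 9.13% higher), with a median of -0.16 over all 36; without vehicle replicate 1 at 24 h, 6 were called lower. For 5 of the 31 tested genes all late vehicle arrays lay below all earlier ones and for 0 above (7.14% and 5.27% of all genes). Espl1 (-0.97, SE 0.22, adjusted p = 0.0026), Cdca8 (-0.71, SE 0.23, adjusted p = 0.03) and Kif2c (-0.63, SE 0.15, adjusted p = 0.004) fell most, and Ckap2 had the largest positive value, not called (0.97, SE 0.51, adjusted p = 0.2). The vehicle fall of Cdca8 depended on the probe: a further probe, above background on all 36 arrays, was at 0.37. On the chosen probes the dexamethasone and vehicle time courses share the direction for Espl1, Cdca8 and Kif2c, with larger values under dexamethasone. In both treatments the group mean of the array medians was highest at 6 h, at 0.46 with dexamethasone and 0.45 with vehicle. With vehicle it was -0.21 at 0.25 h and -0.12 at 1 h, and 0.01 at 18 h and 0.21 at 24 h. By these group means the late vehicle level was lower than at 2, 4 and 6 h but not lower than at 0.25 and 1 h. The single vehicle arrays of 24 h, at 0.19 and 0.23, lay within those of 2 h (0.18 to 0.44) and 4 h (0.15 to 0.4).

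Averaged over all 8 times, 19 genes were called lower and 0 higher (6.64% of all genes lower, 5.15% higher), with a median of -0.29. This average is made from the same arrays as the single times. Mki67 (-0.53, SE 0.07, adjusted p = 7.4e-06), Kif23 (-0.47, SE 0.06, adjusted p = 3.4e-06) and Top2a (-0.46, SE 0.15, adjusted p = 0.042) had the largest values, and Spag5 had the highest value of the tested genes (0.06, SE 0.09, adjusted p = 0.79).

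Many members varied together across arrays, and some did not. The median Pearson correlation over the 630 pairs of members was 0.56 over all 36 arrays (range -0.41 to 0.96). It was 0.68 over the 18 dexamethasone arrays (-0.41 to 0.98) and 0.37 over the 18 vehicle arrays (-0.58 to 0.96). These pairs include the 5 members below background, and pairs of other genes were not examined for reference. These arrays were normalised together and share times and treatments, and the correlations are descriptions. Mad2l1 followed the median of the other members most closely (0.97), with Prc1, Cenpa and Birc5 at 0.95. Among the tested genes Hmmr (0.11), Ckap2 (0.14) and Ect2 (0.28) followed it least. For 21 genes the array held 30 further probes. The 12 of them above background on every array had the same sign as the chosen probe both at 24 h and on average. Between the late and middle times in vehicle cultures, some of these 12 had the opposite sign. These were probes of Cdca8 (0.37, chosen probe -0.71), Birc5 (0.09, chosen probe -0.51) and Top2a (0.36, chosen probe -0.12). The rest of the 12 kept the sign there. Dimmer probes did not always agree at 24 h either. A further Ndc80 probe, above background on 5 arrays, had 0.59 at 24 h where the chosen one had -1.90.

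Other mitosis genes, a list of 71 not in the set, also fell at the late times. Of 66 tested, 28 were called lower at 18 h (1.97% of all genes) and 40 at 24 h (2.03%), with 0 higher at both times. The medians were -0.76 and -1.36. The count at 18 h was 17 without dexamethasone replicate 1 of that time, 14 without dexamethasone replicate 2 and 15 without vehicle replicate 2. At 24 h the largest falls were those of the motor gene Kif18b (-2.15, SE 0.30, adjusted p = 2.2e-05, listed under an older symbol) and the mitotic kinase gene Pbk (-2.09, SE 0.18, adjusted p = 1.6e-08), followed by the kinase gene Melk (-1.96, SE 0.22). Cdk1, the partner of cyclin B, listed as Cdc2a, fell by 1.05 at 18 h (SE 0.21, adjusted p = 0.0018) and by 1.96 at 24 h (SE 0.21, adjusted p = 2.9e-07) on the log2 scale and was at 0.04 at 12 h (adjusted p = 0.96).

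DNA replication and S phase genes were already called lower at 12 h, a time whose 2 vehicle arrays were unlike each other. Of 36 tested, 15 were called lower at 12 h (3.48% of all genes), 29 at 18 h (1.97%) and 27 at 24 h (2.03%), with 0 higher. The medians were -0.17 at 6 h, -0.65 at 12 h, -1.46 at 18 h and -1.41 at 24 h. At 12 h the clamp loader gene Rfc3 (-1.56, SE 0.40, adjusted p = 0.017), the chromatin assembly gene Chaf1b (-1.55, SE 0.34, adjusted p = 0.0057) and the licensing factor gene Cdt1 (-1.53, SE 0.18, adjusted p = 1.6e-06) fell most. These 12 h calls depended on how the spread was estimated: 4 genes of the list were called lower with array weights, 0 with the 12 h arrays alone, where 0% of all genes were, 25 with the replicate block, and 10 to 12 when an array of 12 h was left out. The replicate block also called a larger share of all genes lower at 12 h than the main fit did. Cdt1 had an adjusted p of 0.0011 with array weights and 0.31 with the 12 h arrays alone, and Chaf1b had 0.12 and 0.35. At 18 h 19 were lower without vehicle replicate 1. The difference between this list and the mitosis genes was not tested.

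Of 16 regulators of mitotic transcription tested, 2 were lower at 12 h, 5 at 18 h and 5 at 24 h, with 0 higher; at 12 h, 1 was lower with array weights or without either dexamethasone array or vehicle replicate 2 of that time, and 0 with the 12 h arrays alone. At 18 h 2 were lower without dexamethasone replicate 2 and 3 without vehicle replicate 1. Mybl2, the B-MYB subunit that turns the DREAM core into an activator in G2, was lower at all 3 times (-1.70 at 12 h, SE 0.24, adjusted p = 3.6e-05; -1.63 at 18 h; -1.39 at 24 h), with an adjusted p at 12 h of 0.0032 with array weights and 0.33 with the 12 h arrays alone. Foxm1, which follows it at the same promoters, was at -0.21 at 12 h (SE 0.22, adjusted p = 0.74) and lower at 18 h (-1.09, adjusted p = 0.003) and 24 h (-1.44, adjusted p = 9.7e-05). The S phase activator genes E2f2 (-1.61, SE 0.25) and E2f1 (-0.94, SE 0.23) and the pocket protein gene Rbl1 (-1.27, SE 0.22) also fell at 24 h. Beside the counts of this list, 3.48%, 1.97% and 2.03% of all genes were called lower at 12, 18 and 24 h.

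Among 13 G1 cyclins, CDKs and CDK inhibitors, few passed. Cdkn1a, which encodes the CDK inhibitor p21, was higher by 0.73 at 2 h (SE 0.15, adjusted p = 0.0083), by 0.83 at 4 h (SE 0.15, adjusted p = 0.00069), by 0.90 at 12 h (SE 0.18, adjusted p = 0.0021) and by 0.40 on average (SE 0.06, adjusted p = 2.7e-05), but was at 0.33 at 18 h and -0.20 at 24 h, not called. Cdkn2c, the inhibitor p18, was higher by 0.91 at 12 h (SE 0.21, adjusted p = 0.0069). Neither 12 h call was made with array weights (adjusted p = 0.13 for Cdkn1a, 0.17 for Cdkn2c) or with the 12 h arrays alone (adjusted p = 0.63 for Cdkn1a, 0.59 for Cdkn2c), and the 2 h call of the list was lost without dexamethasone replicate 1 or 3 or vehicle replicate 2 of that time. Cdk2 was lower at 18 h (-0.82, adjusted p = 0.0075) and at 24 h (-0.99, adjusted p = 0.00095); the list had 0 lower at 18 h without dexamethasone replicate 1 or 2 or vehicle replicate 2 of that time, and 0 at 24 h without dexamethasone replicate 1. Cdkn1b (0.88 at 18 h, -0.12 at 24 h) and Cdkn1c (-0.31 at 18 h, 0.14 at 24 h) were not called, with SE of 0.66 and 0.40.

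**Figure D5:**
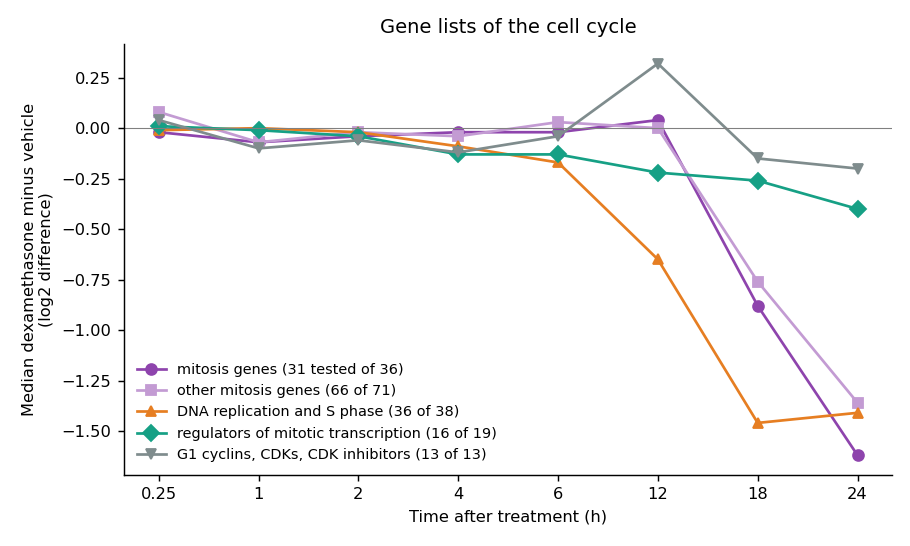
Median log2 difference, dexamethasone minus vehicle, of the tested genes of 5 lists (vertical axis) by hours after treatment (horizontal axis); a point is a median over genes and carries no error. The replication list is at -0.65 at 12 h, where the median of the 31 tested mitosis genes is near 0, and both lie below -1.3 at 24 h.

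Summed levels of cell type markers at the late times separated by treatment for some lists and overlapped for others, and few single markers were called. Each sum covers all tested markers of a list, also those below background on some arrays. Of 8 fibroblast and pericyte markers, 7 lay above background on every array (Lum did not), and their summed corrected intensity at 18 and 24 h was 22600 to 29100 with dexamethasone, against 14300 to 16400 with vehicle. Of the 7, Ogn was called higher at both times (1.18 at 18 h, 1.09 at 24 h) and the others were not called; the list median was 0.25 at each time, and the lowest, Fn1, was at -0.86 and -1.66. Of 6 ependymal markers, 5 lay above background, with sums of 7120 to 8960 against 10400 to 11300 (Ccdc153 was not matched), and Dnah11 was called lower at both times (-1.58 and -1.38). Of 12 microglial markers, 11 were tested (Itgam was not) and 10 lay above background on every array. The sums over the 11 were 3380 to 4540 against 4320 to 5160, and at 0.25 and 1 h 13500 to 17000 against 13100 to 20400. At 18 or 24 h 0 of them were called. All 10 astrocyte markers were tested and 9 lay above background on every array, with sums of 109000 to 114000 against 94600 to 105000. Glul, Aldoc and Slc1a2 were higher at both times and Gja1 lower at 24 h (-0.63). The list median was -0.02 at 18 h, with 5 markers below zero and 5 above. At 24 h it was 0.07, with 4 below and 6 above. All 11 oligodendrocyte lineage markers were tested and 5 lay above background on every array, with overlapping sums of 32200 to 38200 against 32400 to 34600. Of 8 neuron markers, 5 were tested and 4 lay above background on every array (Snap25 and Nefl were not tested, and Rbfox3 was not matched). The 5 summed to 7280 to 11000 against 8250 to 10100, and 0 neuron or oligodendrocyte markers were called at 18 or 24 h. Of 6 endothelial markers, 5 were tested (Cldn5 was not) and 1 lay above background on every array. The 5 summed to 331 to 467 against 277 to 313, so near background, and Flt1 was called higher at 24 h (1.04). The part of these cells in the fall of the mitosis genes was not tested.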

How the data were processed

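Illumina bead array intensities were read as deposited by the authors; no label or header states their normalisation, but the sorted values of the arrays are nearly identical, as quantile normalisation leaves them. The table held values for 45281 probes on 36 arrays of biotinylated cRNA (44.8 to 49460.6); GenomeStudio is named in the submitters' processing notes, with its version not given in the sources used here. A second table held 72 columns of per-sample values whose names match no label; these were not used, and only its pairing of probes with gene symbols was read. Intensities were corrected with normexp (offset 16) and put on the log2 scale. The background level, 91.7, was set from the mode of the intensities (70.2) by mirroring its lower side and taking percentile 99. A probe that passed this level on 2 or more arrays entered (29540 did), and the brightest probe per symbol left 20633 genes. limma 3.58.1 in R 4.3.3 fitted 16 group means, with variances moderated by eBayes (residual df 20, prior df 5.19) and p-values adjusted after Benjamini-Hochberg, called under 0.05. The script was tested on simulated data.

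Members and lists were chosen with earlier results of these data known. Of the list genes, 17 were found under an older symbol. Array values were given for the brightest pair of members in each role, and otherwise for members with the largest changes or on the minority side; of other lists, for the largest changes and for set genes. The arrays' number limits the precision. Replicate numbers in the labels pair arrays at 2 h (correlations of deviations from group means 0.86, 0.68 and 0.77) and 4 h (0.57, 0.36 and 0.54). With 2 arrays per treatment the correlation was 0.8 at 0.25 h, 0.73 at 1 h, 0.03 at 6 h, 0.51 at 12 h, -0.05 at 18 h and -0.13 at 24 h. Alternatives covered background correction, filter, scaling, weights, variance model, replicate block, arrays in the fit, each array left out, and, added after seeing the data, the index of split genes and the same settings for the other lists.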

Additional observations from a re-analysis of the deposited data

Results flagged for a closer look

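A limma test of the difference itself set the responses at 18 and 24 h against those at 2, 4 and 6 h. It called 24 of the 36 genes, all of them lower, where 2.03% of all genes were called lower and 1.01% higher. Among the genes whose values are given by array, the late response minus the early response was -1.25 for Cdca3, -1.35 for Ccnb1, -1.3 for Cdca8, -1.27 for Birc5, -1.02 for Cenpa, -1.14 for Mad2l1 and -1.41 for Nusap1 on the log2 scale. It was -0.83 for Spag5, -1.15 for Cdc20, -1.1 for Espl1, -1.38 for Prc1, -1.2 for Kif23, -1.71 for Top2a and -1.46 for Mki67.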

How the results depend on the processing

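No call of a single member made in the main fit reversed its sign under any setting run. Differences not called there could change sign, as that of Ckap2 at 12 h did. With the replicate block, 25 members were called lower at 18 h (5.4% of all genes), 1 higher at 4 h (3.18%), and 1 lower and 4 higher at 12 h (11.1% and 7.46%); same-numbered arrays deviated together at 0.25, 1, 2, 4 and 12 h and not at 6, 18 and 24 h, and no block could be fitted for the time courses, whose blocks lie within a time. With array weights, 26 were lower at 18 h (10.9%), 1 higher at 4 h (2.39%), 1 higher at 6 h (5.23%) and 3 higher over vehicle time (18.4%). With the arrays of the compared times alone, 28 were lower at 18 h (9.47%), 1 higher at 6 h (4.88%) and 1 higher over vehicle time (12.6%); for the average this is the same fit. Without the 12 h arrays, 1 was higher at 4 h (1.78%). The cause was not tested. Leaving out each array in turn gave 16 to 20 lower on average, 8 to 13 at 18 h, 18 to 25 at 24 h, 18 to 25 for the late minus early response, 26 to 27 over dexamethasone time and 6 to 12 over vehicle time (6 without vehicle replicate 1 at 24 h), with 0 to 1 lower at 12 h and 0 to 1 higher at 4 h and 12 h, and 0 for every other count. Of 118 calls of single genes, 116 were kept without background correction, 116 with offset 50, 118 with centred arrays, 111 without the filter, 117 with trended and robust variances and 117 with the index of split genes. Signal over background limits Hmmr, Ube2c, Racgap1 and the 5 untested genes, and the 24 h dexamethasone values of Ttk and Espl1 lie near background.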
